A study of Mus musculus with 36 samples.

Results

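The livers of old and young mice were compared at the time point labelled 120 of a regeneration series, with 3 libraries of old mice (18 months) and 3 libraries of young mice (4 months). These 6 libraries were taken by their titles from the 36 of the series, which covers both ages before and at 48, 72, 96, 120 and 240. Mice of both ages were of the inbred strain C57BL/6JN, carried no transgene or drug treatment named in the labels, and differed by label in age alone, and the labels call the old animals the treated group. The 3 libraries of a group are described as biological replicates. The labels state neither a unit for the time points nor how regeneration was set off, and no sex is given. Libraries were made from total RNA of frozen liver after removal of ribosomal RNA, so unspliced and non-polyadenylated RNA is measured along with mature messages. Old and young liver RNA had received different mixes of the ERCC spike-in standards; spike-in values were not used here, so amounts are relative within a library.

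The liver restores its mass mainly by division of mature hepatocytes, which leave quiescence, copy their DNA and pass through mitosis in a partly synchronous wave. Endothelial, stellate and Kupffer cells divide later and supply growth signals. During the wave hepatocytes lower part of their metabolic work, such as fat synthesis, bile acid synthesis and drug oxidation, and restore it as the mass returns. In rodents the wave is known to be delayed and weaker at old age.

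Total counts at 120 ran from 2899527 to 5394203 per library, and the median was 5124634 in young and 3469969 in old libraries. Between 15730 and 17421 genes had a count above 0, and the 10 most abundant genes took 11.2% to 14.6% of the counts. A count of 3, the level below which a gene is treated here as undetected, equals 0.556 to 1.03 CPM (counts relative to library totals scaled by the TMM method). Such floors cover counting error only. Albumin (Alb), the main secreted protein of hepatocytes, was at 6756 to 10168 CPM in all 6 libraries, so the tissue label holds.

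Both age groups contain a library with transcripts of another organ. In young replicate 1, the 16 markers of skeletal and heart muscle summed to 1944 CPM, against 0.607 to 2.65 CPM in the other 5 libraries at 120, and 15 of the 16 were above 0. Skeletal actin (Acta1) was at 564 CPM and the fast myosin Myh4 at 215 CPM there, and both were at 0 in the other 5. In old replicate 3, the 34 measured markers of exocrine pancreas summed to 786 CPM, against 4.97 to 8.71 CPM in the other 5, and 30 of the 34 were above 0. Chymotrypsinogen B (Ctrb1) was at 132 CPM and carboxypeptidase A1 (Cpa1) at 50.3 CPM in that library. Islet insulin was not seen there, with Ins1 and Ins2 at 0. The same 2 libraries were also the only ones of the 6 with Y-linked transcripts, which 1 library in each of the 12 groups of the series carries. Xist was at 2.14 CPM in young replicate 1 and 1.43 CPM in old replicate 3, against 2826 to 3870 CPM in the others at 120. By these transcripts the 2 libraries are male and the others at 120 female. The other-organ transcripts and the Y-linked transcripts therefore cannot be told apart at 120. The main counts are also given below without these 2 libraries, which leaves 2 against 2.

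**Figure D1:**
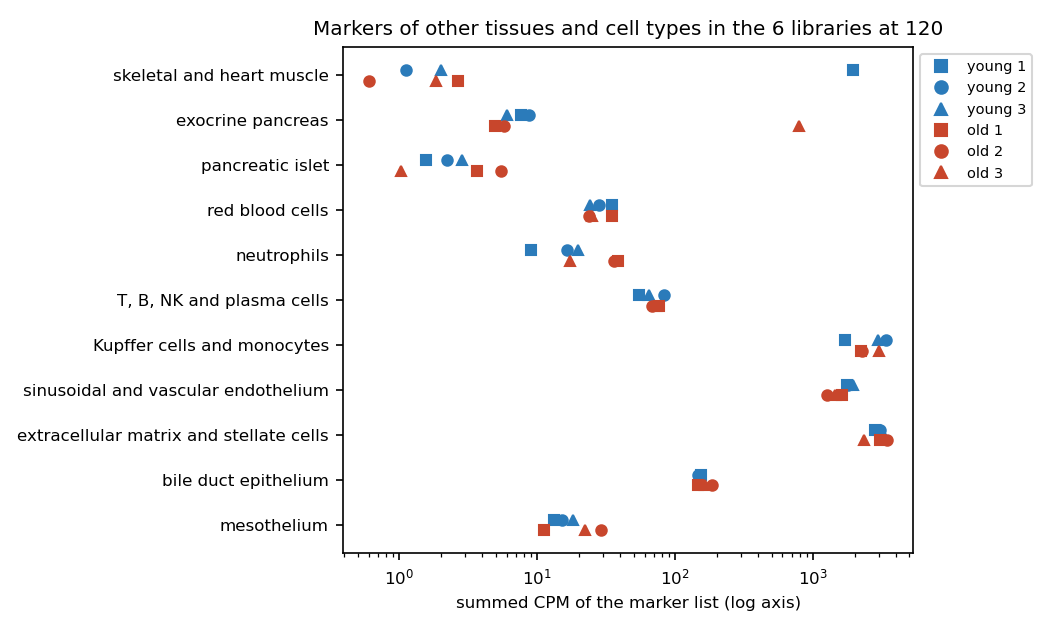
Summed CPM (log axis) of marker lists for other tissues and cell types, 1 point per library, blue for young and red for old. Muscle markers reach 1944 CPM in young 1 and exocrine pancreas markers 786 CPM in old 3, while the other lists lie within a few-fold of each other in the 6 libraries.

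No single gene passed the test for a difference between old and young liver at 120 in the fit of all libraries. By edgeR's quasi-likelihood test with Benjamini-Hochberg adjustment, 0 of 13436 genes (0%) were called at an adjusted p under 0.05, and the smallest adjusted p was 0.0641. At an unadjusted p under 0.05 there were 1321 genes (9.83%), of which 688 were higher in old liver (5.12%) and 633 lower (4.71%). The fit moderates outlying genes by edgeR's robust option, which was chosen with both counts seen, and without it 11 genes were called. DESeq2 on the same counts called 39 genes, 23 higher and 16 lower. With 1 library left out, edgeR called between 0 and 20 genes, with 20 without old replicate 3, 8 without young replicate 3, 7 without young replicate 2 and 2 without young replicate 1. The calls without young replicate 3, without young replicate 2 and without the robust option included the muscle genes Ttn, Atp2a1 and Cmya5, all lower in old liver. Those of DESeq2 included Cmya5 and Ankrd23. Ttn was at 1559 CPM in young replicate 1, the library with muscle transcripts, and at 5.14 to 9.41 CPM in the others at 120. Without young replicate 1 and old replicate 3, edgeR called 11 genes, 9 higher and 2 lower, and 763 (5.59%) and 616 (4.51%) of 13650 genes were higher and lower at an unadjusted p under 0.05. The 3 old values lay above the 3 young values for 1049 genes (7.81%) and below them for 1159 (8.63%). The median log2 fold change of all tested genes was -0.0039. In what follows counts at p under 0.05 are by the unadjusted edgeR p, the values of single genes carry the adjusted p over all tested genes, bracketed log2 fold changes are old minus young with their standard error, and gene lists are described by counts and medians to be read against these background shares. Where leaving out 1 library turned the sign of a list's median or moved it by over 1.5 times, brackets give the lowest and the highest such median with the library left out. There, both libraries means young replicate 1 and old replicate 3.

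Genes of mitosis and cytokinesis had the largest median difference of the pathway lists. Of 45 tested genes, 44 had a higher mean level in old than in young liver, 23 at p under 0.05 and 0 in the opposite direction, and the 3 old values lay above the 3 young ones for 34. The median log2 fold change was 1.29, and it was 1.81 without young replicate 1 and old replicate 3, where again 23 genes were higher at p under 0.05 and 0 lower. The exception was Pttg1 (securin, which holds back sister chromatid separation), at a log2 fold change of -0.47. The largest difference was in Ccnb1, cyclin B1, the partner of Cdk1 at entry into mitosis.

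Ccnb1 stood at 1.36, 0.185 and 1.43 CPM in the young libraries and at 12.9, 10.02 and 3.07 CPM in the old ones, a log2 fold change of 3.12 ± 0.99 (adjusted p = 0.288). Young replicate 2 lay below the floor of 3 counts. Kif20a, a kinesin of the central spindle needed for cytokinesis, was at 10.7, 7.23 and 7.14 CPM in young and 51.1, 33.1 and 30.9 CPM in old liver (2.18 ± 0.68, adjusted p = 0.265). All 3 old libraries lay well above the young range. Kif2c, a kinesin that takes microtubules apart at the centromere, was at 1.36, 0.371 and 0.571 against 8.62, 4.25 and 2.46 CPM (2.61 ± 0.90, adjusted p = 0.317). Birc5 (survivin), a subunit of the chromosomal passenger complex, was at 9.55, 6.48 and 5.42 against 39.1, 26.1 and 20.3 CPM (1.96 ± 0.69, adjusted p = 0.333). In all 4 genes old replicate 1 was the highest and old replicate 3 the lowest of the old libraries, and the groups did not overlap.

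Mki67, the antigen Ki-67 that coats mitotic chromosomes, was at 186, 135 and 141 CPM in young and 591, 525 and 383 CPM in old liver, a log2 fold change of 1.70 ± 0.77 (adjusted p = 0.453). Top2a, the topoisomerase that untangles chromosomes, was at 28.4, 17.04 and 24.5 against 87.5, 53.8 and 31.3 CPM (1.29 ± 0.74, adjusted p = 0.598). Neither group overlapped the other for these genes, although for Top2a the lowest old value was close to the highest young one. The kinase gene Cdk1 itself was at 3.90, 2.96 and 2.28 against 6.96, 5.77 and 3.89 CPM (0.81 ± 0.71, adjusted p = 0.767), with old replicate 3 just below young replicate 1. In an edgeR fit of only the 6 libraries compared, 8 of the 45 were called, all higher in old liver: Birc5, Cenpe, Cenpf, Hmmr, Kif20a, Mki67, Plk1 and Ube2c (background 22 of 12173 genes higher, 0.181%, and 7 lower, 0.0575%). In that fit the adjusted p was 0.0227 for Mki67 and Kif20a and 0.0475 for Birc5.

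The 250 bases before the annotated start are shown for 3 of the mitosis genes with the smallest p and a RefSeq promoter entry, since members of this list differ together. They are on build GRCm38.p6, printed 5′ to 3′ along the gene's strand, with matches to the searched motifs in capitals. The motifs, searched on both strands, were CCAAT (bound by NF-Y), TTTGAA and TTCGAA (the cell cycle homology region) and TTTGGCGC and TTTCCCGC (bound by E2F). The Ccnb1 window is chr13:100786487-100786736, the Kif2c window chr4:117178773-117179022, both on the minus strand, and the Birc5 window chr11:117848987-117849236 on the plus strand. The Kif2c entry lies inside the annotated gene (chr4:117159633-117182624), so it precedes a start downstream of the outermost one.
Ccnb1: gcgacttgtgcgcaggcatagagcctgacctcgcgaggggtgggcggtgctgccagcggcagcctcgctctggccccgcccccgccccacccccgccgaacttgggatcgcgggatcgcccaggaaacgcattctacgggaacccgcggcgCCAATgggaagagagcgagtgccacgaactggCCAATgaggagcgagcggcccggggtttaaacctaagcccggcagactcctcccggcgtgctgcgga
Kif2c: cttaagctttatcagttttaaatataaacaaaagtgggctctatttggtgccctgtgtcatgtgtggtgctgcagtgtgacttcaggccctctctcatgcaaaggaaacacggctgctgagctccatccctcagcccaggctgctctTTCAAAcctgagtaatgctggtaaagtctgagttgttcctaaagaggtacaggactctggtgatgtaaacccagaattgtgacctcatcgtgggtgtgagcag
Birc5: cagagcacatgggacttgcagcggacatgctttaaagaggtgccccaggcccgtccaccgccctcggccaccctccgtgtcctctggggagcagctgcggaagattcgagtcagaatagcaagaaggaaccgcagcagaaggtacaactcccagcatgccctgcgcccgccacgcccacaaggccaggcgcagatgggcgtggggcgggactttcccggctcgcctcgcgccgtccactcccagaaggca

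The Ccnb1 window holds CCAAT at 99 to 95 and at 67 to 63 bases before the start. In Kif2c the capitals mark TTTGAA read on the opposite strand, 103 to 98 bases before the start. The Birc5 window holds none of these letters. Of the 45 mitosis genes, 37 had an entry, and 28 of them (75.7%) held CCAAT, against 9314 of 27025 genes (34.5%) in the whole table. TTTGAA or TTCGAA occurred in 15 of the 37 (40.5%) against 4711 genes (17.4%), and a match to both kinds of motif in 13 (35.1%) against 1679 (6.21%). An E2F match was present in 2 (5.41%) against 366 (1.35%). These are shares of letters in windows of equal length and describe no binding.

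The age difference in mitosis genes at 120 ran opposite to the one at 48. Over the 45 genes the median log2 fold change between the ages began at 0.33 before regeneration, lay at -3.15 at 48, reached 0.16 at 72 and 1.62 at 96, and stood at 1.29 at 120 and 0.52 at 240, while the median of all genes stayed between -0.0129 and 0.0153 at each of these. Mki67 averaged 2288 ± 778 CPM at 48 and 154 ± 27.8 CPM at 120 in young liver, and 243 ± 284, 1014 ± 401, 800.4 ± 467 and 499.8 ± 106 CPM at 48, 72, 96 and 120 in old liver (SD, n = 3). Its levels before were 40.97 ± 8.31 CPM in young and 56.9 ± 26.5 CPM in old. Old liver at 120 thus lay above its own level before, and the change from before was called in 16 of the 45 mitosis genes in old liver, all higher (background 248 of 13436 genes, 1.85%). In young liver it was called in 0 of the 45 (background 29 genes higher, 0.216%). The median log2 change from before over the list was 2.25 in old and 1.23 in young liver, and the test of the difference between these changes called 0 of the 45.

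**Figure D2:**
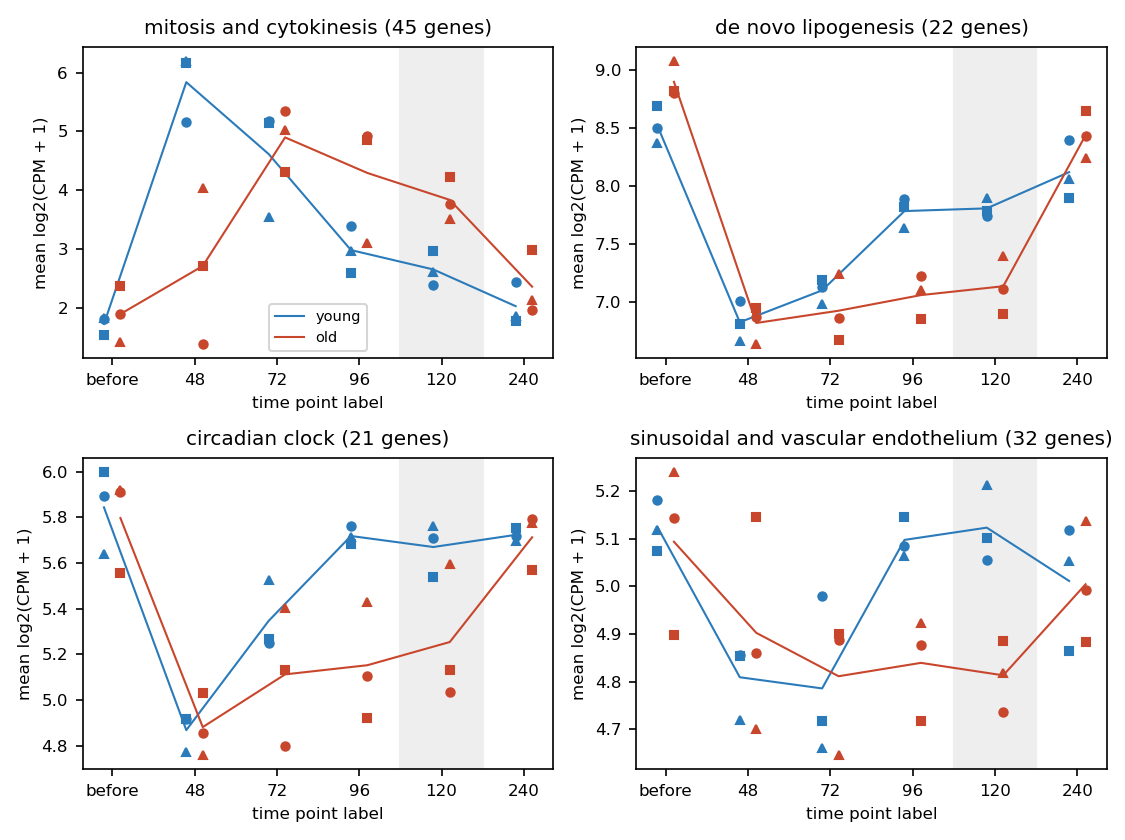
Mean log2(CPM + 1) over the genes of 4 lists in every library of the series, by time point label, blue for young and red for old; squares, circles and triangles are replicates 1, 2 and 3, lines join group means and the grey band marks 120. At 120 the 3 old libraries lie above the 3 young ones for mitosis and below them for lipogenesis and endothelium, while for the clock list old 3 lies inside the young range.

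The difference between these age differences was tested directly. In a contrast of the age difference at 120 with that at 48, edgeR called 465 genes, 383 higher (2.85%) and 82 lower (0.61%), and 40 of the 45 mitosis genes were among the higher. For Ccnb1 the age difference at 120 exceeded that at 48 by 7.19 ± 1.24 on the log2 scale (adjusted p = 0.00197), and for Mki67 by 4.93 ± 1.11 (adjusted p = 0.0109). The 3 genes with the smallest p in this contrast were Mastl (the Greatwall kinase, which protects mitotic phosphorylation), 2700094K13Rik and Hirip3 (a histone-binding protein). Mastl was at 13.4, 13.5 and 8.85 CPM in young and 16.6, 23.7 and 20.7 CPM in old liver at 120, and its age difference exceeded that at 48 by 3.53 ± 0.49 (adjusted p = 0.000706). The excess was 3.33 ± 0.47 for 2700094K13Rik and 2.67 ± 0.40 for Hirip3 (adjusted p = 0.000706 and 0.00112). The old group at 48 was heterogeneous, and leaving out its replicate 3 raised the number of called genes to 840. The number was 246 without young replicate 2 at 120, 261 and 282 without young replicates 1 and 3 at 48, and 307 without old replicate 2 at 48. When only the 4 groups of this contrast were fitted, 124 genes were called, 120 higher and 4 lower.

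**Figure D3:**
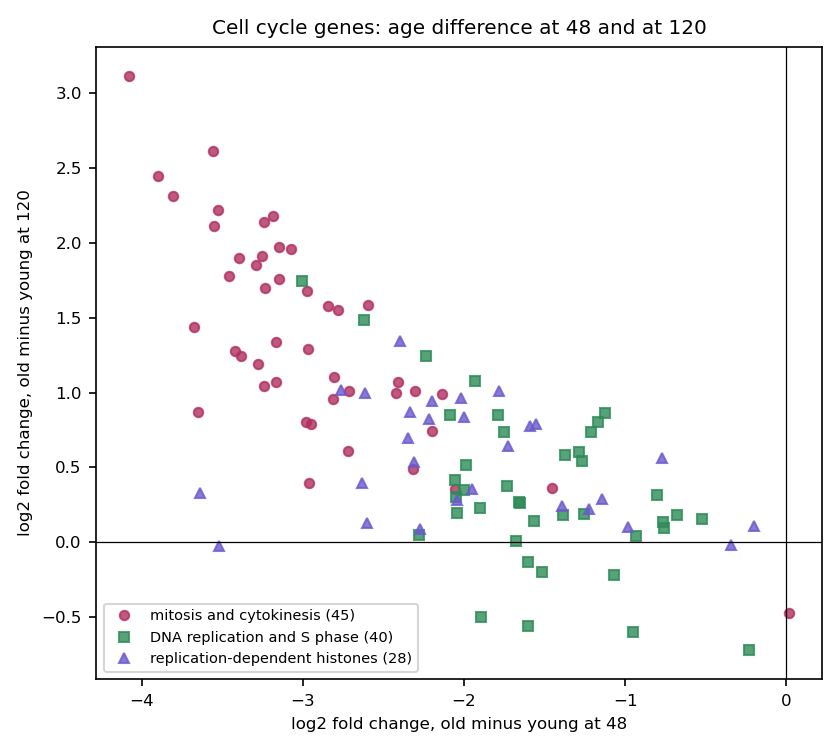
Log2 fold change of old minus young at 48 (x axis) and at 120 (y axis), 1 point per gene, for mitosis (45), DNA replication (40) and histone (28) genes. All 45 mitosis genes except Pttg1 lie in the upper left, lower in old at 48 and higher in old at 120, with Ccnb1 at the top.

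Genes of DNA replication and S phase had a smaller median difference than those of mitosis. Of 40 tested, 33 had a higher mean in old liver, 4 at p under 0.05 (background 5.12%) and 0 were lower at that threshold, with a median of 0.27 (0.073 without old 1 to 0.56 without young 1). Without the 2 libraries with muscle or pancreas transcripts, 9 were higher and the median was 0.63. Ccna2, cyclin A2, which acts in S phase and in G2, was at 14.2, 7.60 and 8.85 CPM in young and 36.8, 39.8 and 27.2 CPM in old liver (1.74 ± 0.67, adjusted p = 0.363). Gins2, a subunit of the replicative helicase complex, was at 1.75, 1.30 and 1.14 against 6.63, 2.13 and 3.48 CPM (1.48 ± 0.59, adjusted p = 0.374). The groups did not overlap for these genes. Mcm2, a subunit of the helicase ring, was at 17.5, 6.67 and 9.99 against 32.8, 15.5 and 14.7 CPM (0.86 ± 0.51, adjusted p = 0.618), and there young replicate 1 lay above 2 of the 3 old libraries. In the fit of only the 6 libraries Ccna2 was called (adjusted p = 0.0475). In the contrast with 48, 15 of the 40 were called higher and 0 lower.

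Replication-dependent histone genes, which are transcribed in S phase, were higher in old liver for 26 of 28, with a median of 0.55 (0.35 without old 1 to 0.69 without old 2) and 2 at p under 0.05. Hist2h2ac was at 47.3, 30.6 and 32.3 CPM in young and 73.6, 55.6 and 60.2 CPM in old liver (0.78 ± 0.31, adjusted p = 0.374), and Hist1h2ac at 10.3, 9.45 and 9.99 against 29.2, 16.4 and 14.9 CPM (1.01 ± 0.44, adjusted p = 0.430). Histone genes are near-identical copies, so their single values are uncertain. Among E2F factors and checkpoint genes 3 of 21 were higher and 1 lower at p under 0.05, with a median of 0.33 (0.066 without old 1 to 0.64 without old 3, 0.73 without both libraries, with 6 higher and 1 lower). Chek1, the kinase that halts the cycle when DNA is damaged, was at 1.95, 1.11 and 1.71 against 5.30, 4.86 and 2.46 CPM (1.36 ± 0.59, adjusted p = 0.416).

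Arrest genes had a median close to that of all genes. Of 24 p53 targets and senescence-linked genes, 0 were higher and 1 lower at p under 0.05, and the median was 0.083 (-0.0065 without young 2 to 0.14 without young 1). Cdkn1a, the p21 inhibitor of cyclin-dependent kinases, was at 15.2, 4.63 and 11.99 CPM in young and 23.9, 24.6 and 20.5 CPM in old liver (1.12 ± 0.68, adjusted p = 0.627); the groups did not overlap, and young replicate 2 was far below the others. The member with the smallest p was Sesn1, a stress-induced inhibitor of growth signalling, at 27.3, 42.6 and 43.96 against 18.2, 23.7 and 27.8 CPM (-0.69 ± 0.24, adjusted p = 0.314). Among 40 genes of Polycomb, DNA methylation and heterochromatin, 0 were higher and 2 lower, with a median of -0.033 (-0.063 without old 1 to 0.022 without young 2); without the 2 libraries with muscle or pancreas transcripts 5 were higher and 0 lower, and the median was -0.013. The 2 lower genes were Cbx7, a Polycomb reader, at 13.2, 15.2 and 12.6 against 7.29, 7.29 and 6.75 CPM (-0.95 ± 0.37, adjusted p = 0.366), and Tet3, an oxidase of methylcytosine (-0.42 ± 0.17, adjusted p = 0.374). Ezh2, the Polycomb methyltransferase, overlapped between the ages at 10.7, 10.7 and 9.70 against 11.6, 7.29 and 5.53 CPM (-0.38 ± 0.34, adjusted p = 0.771). Immediate early genes, the first transcripts induced by growth signals, gave 1 higher and 1 lower of 24, with a median of 0.016 (0.029 without old 1 to 0.19 without old 3, 0.29 without both libraries, with 2 higher and 0 lower).

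**Figure D4:**
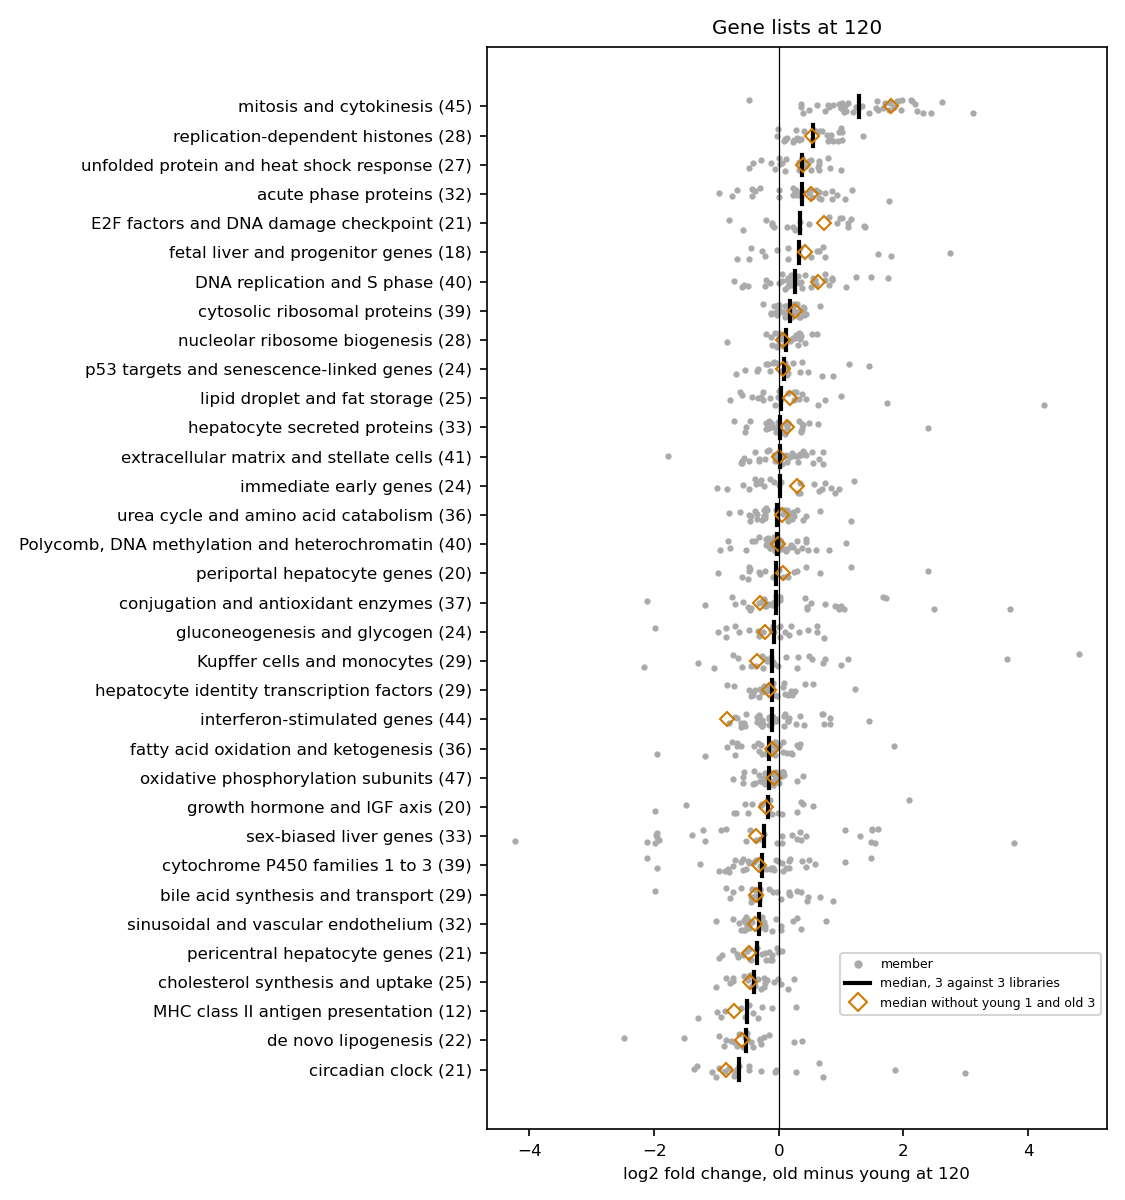
Log2 fold change, old minus young at 120, of every tested member of the gene lists (grey points, number of genes in brackets), with the median of each list in all 6 libraries (black bar) and without young 1 and old 3 (open diamond). Mitosis stands at the top with a median of 1.29, and the circadian clock at the bottom with -0.64 (-0.89 without old 3 to -0.41 without young 1).

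Genes of fat synthesis mostly had lower mean levels in old liver. Of 22 genes of de novo lipogenesis, 9 were lower (40.9%, background 4.71%) and 1 higher at p under 0.05, 20 had a negative log2 fold change, and the median was -0.52. Without young replicate 1 and old replicate 3 the count was 7 lower and 0 higher, with a median of -0.59. Scd1, the desaturase that makes monounsaturated fatty acids, was at 12083, 5460.0 and 7423 CPM in the young libraries and at 72.3, 1626 and 2769 CPM in the old ones (-2.48 ± 0.93, adjusted p = 0.360). Old replicate 1 was far below all the others, and the groups did not overlap. Srebf1, the transcription factor that drives lipogenic genes, was at 407, 486 and 579 against 211, 257 and 349 CPM (-0.85 ± 0.30, adjusted p = 0.338). Fasn, fatty acid synthase, was at 1240.5, 1242 and 1636 against 688, 859 and 962 CPM (-0.71 ± 0.31, adjusted p = 0.418). Thrsp, a lipogenic regulator, was at 251, 508 and 699 against 74.3, 119 and 312 CPM (-1.52 ± 0.64, adjusted p = 0.404), with old replicate 3 above young replicate 1. Before, the age difference over this list had been positive, with a median of 0.38, and old liver at 120 was below its own level before for 15 of the 22 genes by adjusted p (background 272 of 13436 genes lower, 2.02%). In young liver 0 of the 22 were called (background 29 genes higher, 0.216%, and 49 lower, 0.365%). The median log2 change from before was -1.45 in old and -0.62 in young liver, and 0 of the 22 were called for the difference between these changes.

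Cholesterol synthesis and uptake genes were lower in old liver for 22 of 25, with 3 at p under 0.05, 0 higher, and a median of -0.39 (-0.64 without old 2 to -0.14 without old 1). Without young replicate 1 and old replicate 3 there were 4 lower and 0 higher. Tm7sf2, a sterol reductase of the pathway, was at 106, 84.8 and 102 CPM in young and 31.8, 58.9 and 54.8 CPM in old liver (-1.01 ± 0.26, adjusted p = 0.153). Stard4, a carrier of cholesterol between membranes, was at 383, 383 and 444 against 186, 255 and 232 CPM (-0.85 ± 0.26, adjusted p = 0.251), and Sc5d, a sterol desaturase, at 1341, 1236 and 1557 against 527, 1042 and 823 CPM (-0.79 ± 0.28, adjusted p = 0.339). All 3 had groups that did not overlap. In old liver 4 of the 25 changes from before were called, all lower (background 272 of 13436 genes lower, 2.02%). In young liver 0 were called (background 29 genes higher, 0.216%, and 49 lower, 0.365%). The median change was -0.71 in old and -0.40 in young liver on the log2 scale, with 0 called for the difference.

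Fat oxidation genes gave 5 lower and 0 higher of 36 at p under 0.05 and a median of -0.15 (-0.26 without old 1 to 0.033 without old 2), and without the 2 libraries with muscle or pancreas transcripts 2 were lower. Acaa2, the mitochondrial thiolase, was at 174, 128 and 119.9 CPM in young and 69.96, 97.8 and 91.1 CPM in old liver (-0.71 ± 0.22, adjusted p = 0.257), and Acaa1b, its peroxisomal counterpart, at 662, 549 and 379 against 250.3, 83.2 and 365 CPM (-1.18 ± 0.39, adjusted p = 0.305). Ppara, the nuclear receptor that turns on fat oxidation, was at 992, 955 and 1034 against 582, 338 and 762 CPM (-0.83 ± 0.29, adjusted p = 0.326). Old replicate 2 was lowest for Acaa1b and Ppara. Of 24 genes of gluconeogenesis and glycogen, 4 were lower and 0 higher, with a median of -0.081 (-0.25 without old 3 to -0.044 without young 3), with 2 lower without the 2 libraries, and the lowest p belonged to Pklr, liver pyruvate kinase, at 429, 267 and 247 against 209.5, 77.4 and 191 CPM (-0.98 ± 0.34, adjusted p = 0.323). Pck1, the enzyme that opens gluconeogenesis, overlapped fully, at 2986, 4759.9 and 5649 against 4375, 6356 and 2651 CPM. Its log2 fold change was near 0 and took either sign under other settings. Genes of lipid droplets and fat storage gave 1 higher and 3 lower of 25, with a median of 0.042 (-0.13 without old 1 to 0.18 without young 1, 0.18 without both libraries).

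Of 21 genes of the circadian clock, 3 were higher and 6 lower at p under 0.05, and the median of -0.64 (-0.89 without old 3 to -0.41 without young 1) was the lowest of the pathway lists. Without young replicate 1 and old replicate 3 these counts were 3 and 11, with a median of -0.85. The 4 members with the smallest p lay on both sides. Clock, an activator of the oscillator, was at 94.3, 69.1 and 78.8 CPM in young and 120.0, 165 and 112 CPM in old (0.71 ± 0.21, adjusted p = 0.230), and its partner Arntl (BMAL1) at 0.779, 1.67 and 2.00 against 6.30, 8.20 and 2.05 CPM (1.87 ± 0.61, adjusted p = 0.303). For Arntl the lowest old value, in replicate 3, lay just above the highest young one. Tef, a PAR-domain output factor, was at 362, 389 and 384 against 154, 142 and 288 CPM (-0.96 ± 0.31, adjusted p = 0.290), and Per3, a period gene, at 112, 179 and 191 against 63.3, 27.9 and 95.4 CPM (-1.36 ± 0.50, adjusted p = 0.360). Old replicate 3 was closest to the young libraries for all 4 genes. The hour of tissue collection is not in the labels, and its part in these values was not tested.

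Of 32 markers of sinusoidal and vascular endothelium, 26 had a negative and 6 a positive log2 fold change. At p under 0.05, 10 were lower (31.2%, background 4.71%) and 1 higher, 15 had old values wholly below the young ones (background 8.63%), and the median was -0.32. The summed level was 1759 to 1943 CPM in young and 1264 to 1629 CPM in old liver, so the groups did not overlap. Without the 2 libraries the counts were 9 lower and 1 higher. Mrc1, the mannose receptor of sinusoidal cells and macrophages, was at 75.8, 100.97 and 104 CPM in young and 48.4, 61.7 and 58.7 CPM in old liver (-0.73 ± 0.22, adjusted p = 0.230). Flt4 (VEGF receptor 3) was at 53.8, 69.5 and 65.7 against 51.4, 42.2 and 42.8 CPM (-0.47 ± 0.15, adjusted p = 0.280), and Tek, the angiopoietin receptor, at 18.3, 17.8 and 22.3 against 8.62, 11.5 and 17.6 CPM (-0.60 ± 0.21, adjusted p = 0.314). Cdh5, the cadherin that joins endothelial cells, was at 76.96, 88.00 and 96.2 against 58.7, 47.98 and 72.2 CPM (-0.54 ± 0.19, adjusted p = 0.323). In bulk tissue, fewer cells of a type and less RNA per cell cannot be told apart.

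Kupffer cell markers gave a mixed picture. Of 29 markers of Kupffer cells and monocytes, 5 were lower and 2 higher at p under 0.05, with a median of -0.10 (-0.37 without young 1 to 0.16 without young 2, -0.35 without both libraries, with 1 higher and 6 lower). Cd163, the scavenger receptor for haemoglobin on resident macrophages, was at 80.5, 169.5 and 137 CPM in young and 11.3, 20.7 and 52.6 CPM in old liver (-2.16 ± 0.46, adjusted p = 0.0665), and its groups did not overlap. Vsig4, a complement receptor of Kupffer cells, was at 27.5, 90.96 and 79.9 against 38.1, 28.9 and 29.7 CPM (-1.04 ± 0.36, adjusted p = 0.326), and Timd4, which binds dying cells, at 14.6, 37.1 and 31.7 against 14.9, 4.86 and 13.9 CPM (-1.29 ± 0.47, adjusted p = 0.349). For both, young replicate 1 was as low as the old libraries. The summed level of the list overlapped, at 1714 to 3367 CPM in young and 2214 to 3018 CPM in old liver.

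Antigen presentation genes of MHC class II had 3 of 12 lower and 0 higher at p under 0.05, with a median of -0.51 (-0.70 without young 1 to -0.13 without young 2). The groups overlapped for all 12 (background 8.63% of genes wholly lower and 7.81% wholly higher in old liver). Cd74, the invariant chain, was at 32.1, 73.9 and 21.98 CPM in young and 16.9, 27.03 and 20.7 CPM in old liver (-0.9964 ± 0.44, adjusted p = 0.432), and H2-Ab1, a class II chain, at 21.2, 37.2 and 11.99 against 11.6, 14.6 and 11.5 CPM (-0.92 ± 0.35, adjusted p = 0.360). Young replicate 2 was the highest library for both. Interferon-stimulated genes had 0 higher and 1 lower of 44, with a median of -0.12 (-0.71 without old 3 to 0.20 without old 2), and without both libraries 4 were lower, with a median of -0.83. Matrix and stellate cell genes showed no common direction: 1 was higher and 2 lower of 41, and the median was 0.019 (-0.0042 without old 2 to 0.093 without old 1, 0.0017 without both libraries, with 4 higher and 1 lower). Mmp14, a membrane-bound collagenase, was at 41.5, 48.2 and 47.95 against 90.2, 79.3 and 55.9 CPM (0.71 ± 0.20, adjusted p = 0.208), and Col1a1, a collagen I chain, overlapped at 30.00, 18.2 and 15.7 against 21.9, 24.3 and 32.7 CPM. Des (desmin), a marker of stellate cells that muscle also makes, was at 105, 8.15 and 7.71 against 14.6, 10.9 and 10.4 CPM, and its log2 fold change of -1.77 ± 0.61 turned to 0.70 without young replicate 1 and old replicate 3.

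Acute phase genes were higher in old liver for 23 of 32, with 7 higher (21.9%, background 5.12%) and 0 lower at p under 0.05, and a median of 0.36 (-0.15 without old 2 to 0.66 without old 3). Without young replicate 1 and old replicate 3 there were 4 higher and 0 lower. Cp (ceruloplasmin, the copper oxidase of plasma) was at 535, 684 and 743 CPM in young and 1302, 1240.3 and 752 CPM in old liver (0.75 ± 0.21, adjusted p = 0.210). Lbp, which binds bacterial lipopolysaccharide, was at 12.9, 36.5 and 27.4 against 66.97, 61.04 and 33.97 CPM (1.07 ± 0.35, adjusted p = 0.290), and Lcn2, which withholds iron from bacteria, at 35.5, 107 and 105 against 324, 388 and 132 CPM (1.77 ± 0.72, adjusted p = 0.39). Old replicates 1 and 2 carried these differences, and old replicate 3 was close to young. Osmr, the oncostatin M receptor, was high in old replicate 2 alone, at 10.3, 16.1 and 16.6 against 17.6, 49.8 and 11.3 CPM (0.86 ± 0.34, adjusted p = 0.374).

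Chaperones of the unfolded protein and heat shock responses had 5 higher and 1 lower of 27, with a median of 0.38 (0.24 without old 2 to 0.39 without old 3), and 7 higher and 0 lower without the 2 libraries. Pdia4, a disulfide isomerase of the endoplasmic reticulum, was at 275, 266 and 271 CPM in young and 414, 436 and 319 CPM in old liver (0.52 ± 0.22, adjusted p = 0.409). Cytosolic ribosomal protein genes were 0 higher and 0 lower of 39, with a median of 0.18 (0.012 without old 1 to 0.25 without old 3, 0.26 without both libraries, with 1 higher and 0 lower), and nucleolar ribosome biogenesis genes 2 higher and 0 lower of 28, with a median of 0.11 (0.059 without young 1 to 0.21 without young 2, 0.068 without both libraries, with 1 higher and 0 lower). Of 47 subunits of oxidative phosphorylation, 37 had a negative log2 fold change, 2 were lower and 0 higher at p under 0.05, and the median was -0.15 (-0.21 without young 3 to -0.023 without young 1, -0.076 without both libraries, with 0 higher and 0 lower).

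Other hepatocyte functions were represented by further lists. Secreted proteins had a median of 0.02 (-0.16 without old 2 to 0.18 without old 3, 0.13 without both libraries, with 2 higher and 1 lower), with 1 higher and 2 lower of 33, and genes of the urea cycle and amino acid catabolism a median of -0.026 (-0.39 without old 2 to 0.16 without old 1, 0.051 without both libraries, with 2 higher and 1 lower), with 1 higher and 1 lower of 36. Pericentral genes, active next to the central vein, were lower in old liver for 20 of 21, yet 2 passed p under 0.05, and the median was -0.36 (-0.48 without young 2 to -0.14 without old 2, -0.48 without both libraries, with 0 higher and 3 lower). Cyp2e1, the ethanol-oxidizing P450 of that zone, was at 2437, 2269 and 2414 CPM in young and 1153, 665 and 1839.9 CPM in old liver (-0.96 ± 0.34, adjusted p = 0.339). Glul, glutamine synthetase of the innermost pericentral layer, was at 1109, 1086 and 1288 against 1109, 561 and 829 CPM (-0.48 ± 0.39, adjusted p = 0.745), with old replicate 1 inside the young range. Periportal genes had a median of -0.046 (-0.61 without old 2 to 0.11 without old 3, 0.073 without both libraries), with 2 higher and 0 lower of 20. Among cytochrome P450 genes, 3 were lower and 0 higher of 39, with a median of -0.28 (-0.45 without old 3 to -0.17 without old 2); close paralogs make their single values uncertain.

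Bile acid genes gave 3 lower and 2 higher of 29, with a median of -0.31 (-0.49 without old 3 to -0.13 without old 2, -0.37 without both libraries, with 2 higher and 4 lower). Slc27a5, which activates bile acids for conjugation, was at 1046, 1242 and 1366 CPM in young and 423, 909 and 709 CPM in old liver (-0.84 ± 0.29, adjusted p = 0.323). Cyp7a1, the rate-limiting enzyme of bile acid synthesis, overlapped at 402, 792 and 756 against 159, 504 and 614 CPM (-0.61 ± 0.98, adjusted p = 0.899). Conjugation and antioxidant enzymes gave 3 higher and 2 lower of 37, with a median of -0.05 (-0.52 without old 3 to 0.20 without old 1, -0.31 without both libraries, with 1 higher and 3 lower). Nqo1, a quinone reductase, was at 15.00, 14.6 and 15.98 against 21.9, 46.8 and 74.7 CPM (1.67 ± 0.56, adjusted p = 0.313), and Srxn1 (sulfiredoxin, which repairs peroxiredoxins) at 109, 78.9 and 73.4 against 123, 154 and 578 CPM (1.71 ± 0.69, adjusted p = 0.39). Old replicate 3, the library with pancreas transcripts, was highest in both, and without the 2 libraries their log2 fold changes were 1.19 and 0.88. Inmt, an indolamine methyltransferase, was at 480.4, 561 and 483 against 63.3, 80.8 and 206 CPM (-2.12 ± 0.86, adjusted p = 0.39).

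Growth hormone and IGF genes were 2 higher and 3 lower of 20, with a median of -0.18 (-0.23 without old 1 to -0.11 without old 2, -0.21 without both libraries, with 2 higher and 2 lower). Ghr, the growth hormone receptor, was at 941, 789 and 799 CPM in young and 393, 459 and 681 CPM in old liver (-0.72 ± 0.24, adjusted p = 0.310), with no overlap. Igfbp1, a secreted IGF-binding protein, was at 44.03, 63.2 and 49.1 against 273, 380.2 and 13.9 CPM (2.09 ± 0.75, adjusted p = 0.349), high in old replicates 1 and 2 and lowest of all 6 libraries in old replicate 3. Hepatocyte identity factors had a median of -0.11 (-0.16 without old 1 to -0.031 without young 3, -0.15 without both libraries, with 0 higher and 4 lower), with 1 higher and 4 lower of 29. Fetal liver and progenitor genes had a median of 0.33 (0.11 without old 2 to 0.44 without old 3, 0.42 without both libraries, with 3 higher and 1 lower), with 2 higher and 0 lower of 18, and Afp, the fetal counterpart of albumin, overlapped at 7.21, 11.7 and 14.8 against 20.9, 13.97 and 13.3 CPM (0.52 ± 0.48, adjusted p = 0.778).

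Single genes that stood apart were taken by smallest p among those with groups that did not overlap, at least 1 CPM, and p under 0.05 in each of the 6 fits that leave out a library. A total of 144 genes higher and 110 lower in old liver met these conditions, and the first 12 of each are shown. None passed the adjusted threshold in the fit of all libraries, and the adjusted p of these 24 ran from 0.0641 to 0.153. DESeq2 called 20 of them, and 10 were called by edgeR when old replicate 3 was left out. 

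**Figure D5:**
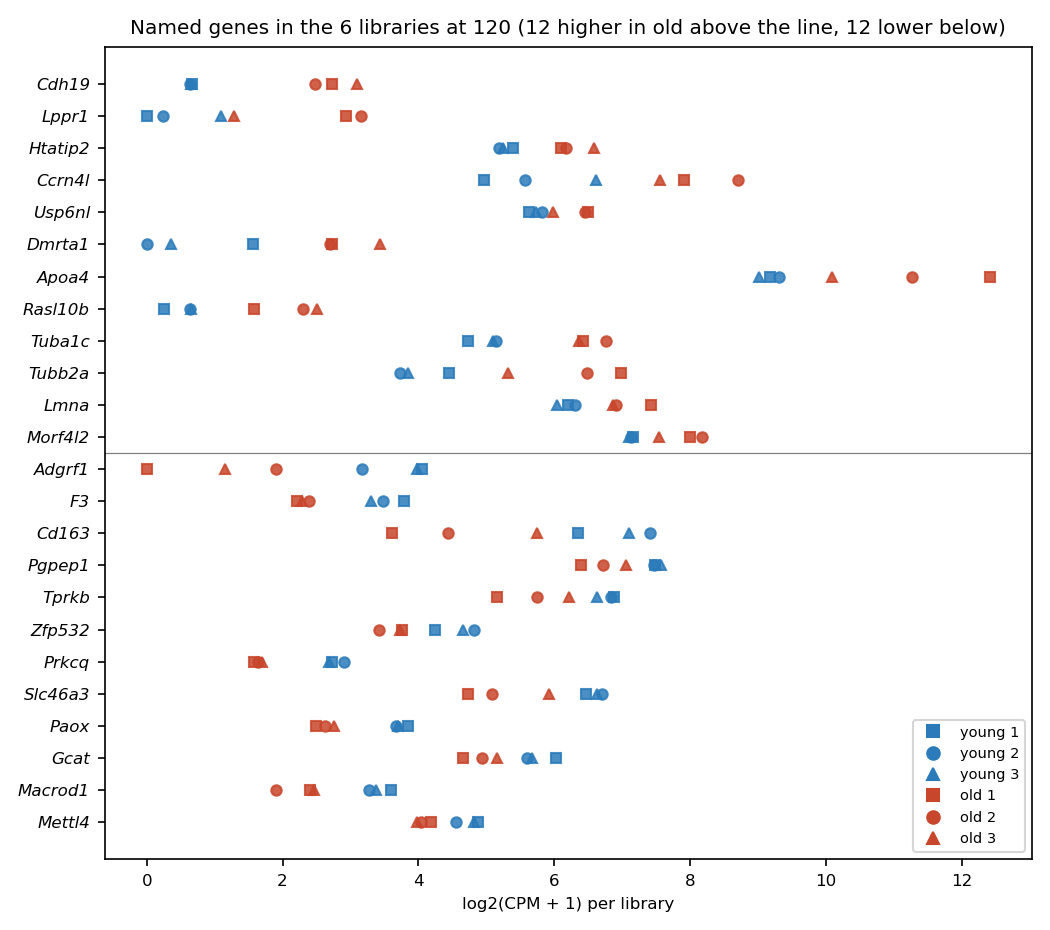
Log2(CPM + 1) in the 6 libraries of the 12 genes higher and the 12 lower in old liver at 120, blue for young and red for old, with squares, circles and triangles for replicates 1, 2 and 3. For every gene the groups do not overlap, because that was a condition of the choice; the highest levels are those of Apoa4, at up to 5461 CPM in old 1.

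Among the genes higher in old liver, Tuba1c, an alpha-tubulin (chr15:99029891-99038105), was at 25.5, 34.3 and 33.1 CPM in young and 84.5, 107 and 81.04 CPM in old liver (1.55 ± 0.36, adjusted p = 0.131), and Tubb2a, a beta-tubulin (chr13:34074278-34078008), at 20.8, 12.2 and 13.4 against 126, 88.4 and 38.9 CPM (2.43 ± 0.56, adjusted p = 0.131). Tubulin genes are close paralogs, which makes the split of reads between them uncertain. Lmna, which encodes lamin A and C of the nuclear envelope (chr3:88481148-88509932), was at 72.9, 78.2 and 64.8 against 170.4, 119 and 116 CPM (0.91 ± 0.22, adjusted p = 0.139). Morf4l2, a subunit of a histone acetyltransferase complex (chrX:136732942-136743686), was at 141, 139 and 136 against 255, 289 and 186 CPM (0.81 ± 0.19, adjusted p = 0.145). Tuba1c and Lmna also had a larger age difference at 120 than at 48, by 2.12 ± 0.50 and 1.24 ± 0.30 (adjusted p = 0.0138 and 0.0173).

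Apoa4, an apolipoprotein of triglyceride-rich particles (chr9:46240844-46243458), was at 576, 635 and 515 CPM in young and 5461, 2478 and 1084 CPM in old liver (2.39 ± 0.51, adjusted p = 0.0665). The old libraries spread widely among themselves, with replicate 1 highest, but all exceeded the young. At 96 the means were 906 ± 369 CPM in young and 3231 ± 207 CPM in old, and before they were 506 ± 198 and 389 ± 149 CPM (SD, n = 3). Ccrn4l (Noct, nocturnin, a rhythmic phosphatase; chr3:51224447-51251654) was at 30.4, 46.5 and 96.8 against 239, 418 and 187 CPM (2.29 ± 0.46, adjusted p = 0.0641, DESeq2 adjusted p = 0.000392). Htatip2, also known as TIP30 (chr7:49759045-49774000), was at 40.9, 35.6 and 36.8 against 67.3, 71.4 and 95.4 CPM (1.05 ± 0.21, adjusted p = 0.0641). Usp6nl, a GTPase-activating protein that switches off a Rab (chr2:6322757-6448296), was at 48.7, 55.6 and 51.9 against 89.2, 86.9 and 62.01 CPM (0.60 ± 0.13, adjusted p = 0.0665).

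A further 4 genes were low in both ages. Cdh19, a cadherin, was at 0.584, 0.556 and 0.571 CPM in young and 5.64, 4.56 and 7.57 CPM in old liver (3.33 ± 0.66, adjusted p = 0.0641), Lppr1 (Plppr1) at 0, 0.185 and 1.14 against 6.63, 7.90 and 1.43 CPM, Dmrta1, a DM-domain factor, at 1.95, 0 and 0.285 against 5.64, 5.47 and 9.82 CPM, and Rasl10b, a small GTPase, at 0.195, 0.556 and 0.571 against 1.99, 3.95 and 4.71 CPM. Most of their young values lie at or below the floor of 3 counts, so the size of these differences is imprecise.

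Among the genes lower in old liver, F3, tissue factor, which starts coagulation (chr3:121723537-121735052), was at 12.9, 10.2 and 8.85 CPM in young and 3.65, 4.25 and 3.89 CPM in old liver (-1.44 ± 0.29, adjusted p = 0.0641), and Adgrf1, an adhesion receptor (chr17:43270283-43325876), at 15.6, 7.97 and 14.8 against 0, 2.73 and 1.23 CPM (-3.22 ± 0.64, adjusted p = 0.0641). Neither overlapped, and Adgrf1 was at 0 in old replicate 1. Cd163 (chr6:124304636-124330529) is described above among the Kupffer cell markers. Slc46a3, a lysosomal transporter (chr5:147875897-147894861), was at 87.9, 104 and 98.2 against 25.5, 32.8 and 59.8 CPM (-1.28 ± 0.30, adjusted p = 0.133). Gcat, an enzyme of threonine breakdown (chr15:79030874-79042531), was at 63.9, 47.6 and 49.95 against 24.2, 29.8 and 34.8 CPM (-0.86 ± 0.21, adjusted p = 0.152), and Paox, a polyamine oxidase (chr7:140115735-140134334), at 13.4, 11.7 and 11.99 against 4.64, 5.16 and 5.73 CPM (-1.24 ± 0.30, adjusted p = 0.145). Old replicate 3 was the highest of the old libraries for Cd163, Slc46a3, Gcat and Paox.

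Pgpep1, a peptidase of pyroglutamyl peptides, was at 177, 177 and 189.8 CPM in young and 83.5, 104 and 132 CPM in old liver (-0.76 ± 0.18, adjusted p = 0.131), and Tprkb, which helps modify transfer RNA, at 117, 114 and 98.2 against 34.8, 52.5 and 73.7 CPM (-1.02 ± 0.24, adjusted p = 0.131). Prkcq, protein kinase C theta, was at 5.65, 6.48 and 5.42 against 1.99, 2.13 and 2.25 CPM (-1.45 ± 0.34, adjusted p = 0.131). The remaining genes were Macrod1 (an ADP-ribose hydrolase), Mettl4 (a methyltransferase) and Zfp532 (a zinc finger gene), with log2 fold changes of -1.32 ± 0.33, -0.72 ± 0.18 and -0.9999 ± 0.24. For F3 and Zfp532 the age difference at 120 was lower than at 48, by -1.41 ± 0.40 and -1.15 ± 0.33 on the log2 scale (adjusted p = 0.0450 and 0.0480).

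Whether the age difference at 120 departed from the one already present before was also tested. Ablim3, an actin-binding protein of the cytoskeleton, was the 1 gene called of 13436 (0.00744% higher, 0% lower), with an age difference 1.91 ± 0.28 larger at 120 than before on the log2 scale (adjusted p = 0.00283). It was at 38.8, 22.97 and 26.3 CPM in young and 45.1, 50.1 and 45.2 CPM in old liver at 120, and before it had averaged 49.5 ± 9.31 and 20.9 ± 2.12 CPM (SD, n = 3), so the order of the ages was the opposite. DESeq2 called 2 genes, and 0 were called when only the 4 groups of this contrast were fitted. The count was 3 without young replicate 2, 3 without young replicate 3 and 2 without old replicate 3. The next genes by p were Hip1r and Slc2a4, and Slc2a4, a glucose transporter of muscle and fat, was above 1 CPM at 120 only in young replicate 1, the library with muscle transcripts. A contrast of 120 with 96 called 0 genes by edgeR, with 293 of 13436 at an unadjusted p under 0.05, and 0 by DESeq2. Young replicate 1 at 96 also held exocrine pancreas transcripts, with markers summing to 383 CPM, against 5.63 to 8.59 CPM in the others at 96. Its part in this contrast was not tested.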

How the data were processed

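RNA-seq of liver total RNA was compared between 3 old and 3 young libraries at 120. The authors deposited whole-number counts per gene symbol, 1 table of 21955 rows per library, of which 27 read as dates. The submitters' processing notes name bcl2fastq 2.20.0, Trimmomatic 0.39, STAR 2.7.5b, featureCounts and the mouse builds GRCm38 and mm10. Annotation, strand setting and treatment of multi-mapping reads are not given in the sources used here, so antisense and overlapping genes and close paralogs are uncertain.

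The tests used edgeR 4.0.16 (R 4.3.3). All 36 libraries entered 1 quasi-likelihood fit (robust, with a mean per group), after TMM scaling and filterByExpr, which left 13436 genes; the common biological coefficient of variation was 24.7%. P-values were adjusted by Benjamini-Hochberg over all tested genes, with 0.05 as threshold. The robust option was chosen after the counts of calls with it (0) and without it (11) had been seen. The age difference at 120 was also contrasted with that before, at 48 and at 96. List scores in the plot by time point are means of log2(CPM + 1). On simulated counts the test for old against young at 120 called 86% of 4-fold and 53% of 2-fold changed genes among 13222, and 7.33% of 150 calls were false. Each simulated gene had its mean over all 36 libraries in every group, and only genes with a mean above 1 CPM were changed. The simulation held no library with transcripts of another organ and no Y-linked split. These shares therefore need not hold for the real libraries. The 6 libraries at 120 have no duplicate: the chi-square per degree of freedom between libraries of 1 age was 4.83 to 30.4.

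The 12 named genes in each direction follow the rule given in the report, with predicted genes, pseudogenes and clone names left out. In each gene list up to 4 members of smallest p were named, and Alb, Afp, Cd74, Cdk1, Cdkn1a, Ccnb1, Col1a1, Cyp7a1, Ezh2, Glul, Mcm2, Mki67, Pck1 and Top2a were reported regardless of outcome. The comparison, lists and rules were chosen with earlier results of these data known. Coordinates and promoter sequences are from RefSeq (GRCm38.p6), in which each named symbol had 1 match. Alternatives were other scalings and filters, DESeq2 1.42.0, fits restricted to the groups of a contrast, the replicate number as a block, the Y-linked split, removal of pancreatic genes, and leaving out libraries. The last of these with both libraries that carry transcripts of another organ, the fit without the robust option and leaving out libraries at 48 were added after seeing the data.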

Additional observations from a re-analysis of the deposited data

Results flagged for a closer look

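The age difference at 120 was tested against the age difference at other time points, and results that passed at an adjusted p under 0.05 by edgeR's quasi-likelihood test are listed here, with no explanation weighed. Against before, 1 gene passed, Ablim3, whose old minus young difference was 1.91 larger at 120 on the log2 scale. Against 48, 465 genes passed. The excess at 120 was 3.53 for Mastl, 3.33 for 2700094K13Rik and 2.67 for Hirip3. For the cell cycle genes it was 7.19 for Ccnb1, 4.93 for Mki67, 4.26 for Top2a and 3.79 for Cdk1. The tubulin gene Tuba1c had an excess of 2.12 and the lamin gene Lmna one of 1.24, while the difference was -1.41 for F3 and -1.15 for Zfp532. At 120 itself 0 genes were called between the ages in this fit. The spread among the old libraries at 48 enters each value of the contrast with 48.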

How the results depend on the processing

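The number of genes called between old and young at 120, which was 0, was 39 with DESeq2, 29 in a fit of only the groups compared, 10 with a term for the Y-linked split, 51 among libraries without Y-linked transcripts, 11 without the robust option, 11 without young replicate 1 and old replicate 3, and 0 to 20 with 1 library left out. Scaling, filters and removal of pancreatic genes left it at 0. Muscle genes high in young replicate 1 were among the calls of DESeq2, of the fit without the robust option and of some fits with 1 library left out. At an unadjusted p under 0.05 the count stayed between 1035 and 1689 under all alternatives. Against before the count (1) was 2 with DESeq2, 0 with only the groups compared, 30 among libraries without Y-linked transcripts, and 1 to 3 with 1 library left out. Against 48 (465) it was 124 with only the groups compared, 174 among libraries without Y-linked transcripts, 246 to 411 with a library at 120 left out and 261 to 840 with a library at 48 left out. Replicate numbers did not pair the libraries at 120: same-numbered deviations correlated at -0.177, 0.0759 and -0.308, and with the number as a replicate block 1 gene was called at 120, 1 against before, 470 against 48 and 0 against 96. Medians of the mitosis, lipogenesis, cholesterol, clock and endothelial lists kept their sign under every alternative tried, in the ranges 1.09 to 1.81, -0.61 to -0.45, -0.64 to -0.14, -0.89 to -0.41 and -0.42 to -0.29, while 45 of 755 medians over all lists changed sign. Single genes that changed sign were Pck1 (0.012 with median-of-ratios scaling and with DESeq2, 0.0133 with total-count scaling, 0.00786 without a filter, 0.0154 with a CPM filter, 0.0218 with only the groups compared, 0.0427 with the block, 0.0573 among libraries without Y-linked transcripts, 0.0593 without young 1 and old 3, and -0.32 to 0.26 with 1 library left out), Hsd3b5 (-6.73 to 0.23 with 1 library left out, positive without young replicate 1), Des (0.69 among libraries without Y-linked transcripts, -2.26 to 0.61 with 1 left out, positive without young replicate 1, and 0.70 without both) and Ctrl (-1.10, then -0.80 to 3.57 with 1 left out, negative without old replicate 3, and -1.09 without both). The cause was not tested. Depth limits genes near 3 counts, 0.556 to 1.03 CPM.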

Other observations

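Some gene groups and cell types fall outside the comparisons above. All 6 tested neutrophil genes had a higher mean in old liver, with a median log2 fold change of 0.97 and 1 at an unadjusted p under 0.05, and the summed level of the 14 measured markers was 8.96, 16.5 and 19.7 CPM in young and 38.5, 35.8 and 17.2 CPM in old liver. Old replicate 3 lay inside the young range. Markers of T, B, NK and plasma cells summed to 54.4 to 83.6 CPM in young and 68.3 to 76.6 CPM in old, and those of bile duct epithelium to 146 to 153 CPM in young and 147 to 186 CPM in old. Both overlapped between the ages. The 11 genes of the adipocyte list summed to 4761 to 6198 CPM in young and 3792 to 6501 CPM in old liver. That list includes Pck1, described above among the genes of gluconeogenesis. Of its other members, Adipoq was at most 0.571 CPM and Lep at 0 in all 6 libraries.

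Adcy1, a calcium-stimulated adenylyl cyclase, was chosen after its values were seen. It was at 1.17, 0.926 and 1.14 CPM in young liver and at 120.0, 66.8 and 0.409 CPM in old liver. The 2 high old libraries are those without pancreas or Y-linked transcripts, and old replicate 3, which carries both, was below the young. DESeq2 called Adcy1 between the ages at 120 (adjusted p = 0.000195, log2 fold change 5.87). The edgeR fit of all libraries did not. With edgeR it was called without old replicate 3 (adjusted p = 0.000709) and among libraries without Y-linked transcripts (4.37e-06). It was also called with the Y-linked term (0.0265) and without the robust option (0.0447). Its groups overlap, so it is outside the genes named above.

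Sex-biased liver genes gave 0 higher and 0 lower of 33 at an unadjusted p under 0.05, with a median of -0.24, although their members had log2 fold changes among the widest of any list. The median was 0.56 without young replicate 1 and -1.29 without old replicate 3, the libraries that carry Y-linked transcripts, and -0.37 without both. A member of the list, Sult2a1, was called by edgeR as higher in old liver when the Y-linked split was taken into account. Its log2 fold change was 3.75 with a term for the split (adjusted p = 7.69e-08). Among libraries without Y-linked transcripts it was 3.78 (adjusted p = 7.04e-05).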
